A study of Homo sapiens with 3 samples.

Results

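PLC is an established cell line from a human hepatocellular carcinoma, the main cancer of liver parenchymal cells. The control library of these cells was described alone, gene by gene, to show which hepatocyte, fetal, cancer and housekeeping programs the line expressed and which liver genes were listed at or near 0. The loci were chosen by rule: every entry of the control table with status OK and a locus of 300 bases or more. This kept 46348 of 57072 entries, out of 170810 entries in the 3 tables of the series.

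The series holds RNA-seq of 3 libraries, 1 for each group: cells given a non-targeting shRNA (the control, labelled NTC), shRNA against DIS3L2, or shRNA against hnRNP U. All were grown in DMEM with 10% serum at 37 °C and 5% CO2, and were taken 48 hours after hairpin viruses were added. The control cells are therefore infected cells that carry a hairpin, and no library of uninfected cells was analysed. With 1 library for the control there is no replicate, no test and no estimate of biological spread; the range in parentheses after a value is the interval deposited with it, which covers the estimate within this library only.

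Levels are FPKM, fragment counts divided by transcript length and by the library's mapped fragments. Levels of genes of different length can thus be set side by side, with less certainty for very short transcripts. The limit of 300 bases applies to the locus, not to its transcript. A gene was called expressed at 1 FPKM or more with a lower bound above 0. By this rule 12093 loci, 26.1% of the 46348, were expressed. Among protein-coding names 10567 of 19093 were expressed (55.3%), 6542 were under 0.1 FPKM (34.3%) and 1516 were at 100 FPKM or more (7.94%). The median protein-coding name stood at 2.2 FPKM, and the median expressed one at 15.1 FPKM. From the intervals of 93 single-exon genes the library's depth was worked out as 22982091 fragments, with quartiles of 22545809 and 23491115. At that depth 3 fragments in a transcript of 2000 bases come to 0.0653 FPKM, and a lower level could not be told from 0 for such a transcript. The median half-width of the interval was 30.5% of the level between 1 and 5 FPKM, 9.45% between 5 and 50 FPKM and 4.99% from 50 FPKM up.

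An exact 0 in this table can be a failed estimate. Of 5446 protein-coding names listed at 0, 278 (5.10%) stood at 1 FPKM or more in another library of the series, and NDUFS1, a core subunit of respiratory complex I, was listed at 0 here. Genes are therefore described as listed at 0, with no lower limit drawn from it. Overlapping genes were also merged: 2411 loci carry several names, and a merged value belongs to all names of the locus. No label says that strand was kept, so reads of overlapping antisense genes were not separated. A gene said below to lie in or within an expressed locus had 50% or more of its locus covered by another. The covering locus was at 1 FPKM or more, whatever its lower bound.

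Hepatocytes make most of the proteins of blood plasma, clear ammonia through the urea cycle, make and export bile acids, store and release glucose, and modify foreign compounds with cytochromes P450 and conjugating enzymes. A network of transcription factors, among them HNF4A, the FOXA proteins and the C/EBP proteins, switches these genes on. The fetal liver instead makes alpha-fetoprotein and several growth regulators that fall silent after birth and that liver cancers often express again.

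The line's highest gene was a hepatocyte gene. SERPINA1, which encodes alpha-1-antitrypsin, the main protease inhibitor of plasma, ranked 1 at 11439 FPKM (10966 to 11912). Its locus is chr14:94843084-94857030 of hg19. Of the 10 highest loci, 8 were ribosomal protein genes, led by RPS29 (10248 FPKM in a locus shared with pseudogene names), RPL35 (7963 FPKM), RPL41 (7613 FPKM), RPS27 (7486 FPKM) and RPS21 (7412 FPKM). RPL10, RPS2 and RPL37A were the other ribosomal loci, and PPIA, the peptidyl-prolyl isomerase cyclophilin A, stood among them at 7059 FPKM (6839 to 7278). These 10 loci held 9.52% of the 799617 FPKM summed over the ranked loci. With loci under 300 bases kept, the share was 60.7%, most of it from a single 5.8S ribosomal RNA locus.

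Ranks 11 to 25 mixed ribosomal proteins with liver, cytoskeletal and metabolic genes. AMBP, the precursor of alpha-1-microglobulin and bikunin, was the second hepatocyte gene, at rank 13 with 4158 FPKM (3985 to 4331). GAPDH, a glycolytic enzyme, stood at 3757 FPKM, FTL, the ferritin light chain, at 3628 FPKM, and PFN1, the actin-binding protein profilin, at 3807 FPKM. GSTP1, a glutathione transferase that adult hepatocytes hardly make, ranked 21 at 3539.7 FPKM (3431 to 3648). EEF1A1, the translation elongation factor, stood at 3454 FPKM and the merged MYL6 and MYL6B locus, myosin light chains, at 3285 FPKM. Other loci of this range were the ribosomal RPS19, RPS16, RPL13, RPS15, RPS3 and RPS23 and MTND1P23, a nuclear pseudogene of a mitochondrial gene, at 3869 FPKM. The table has 0 entries on the mitochondrial chromosome, so reads of the mitochondrial gene and of this copy could not be told apart. Going down the ranking, 33 of the 50 highest loci, 62 of the 100 highest and 77 of the 200 highest were ribosomal protein genes, against 3, 3 and 7 for members of the lists of secreted hepatocyte proteins, which do not hold every such protein.

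**Figure D1:**
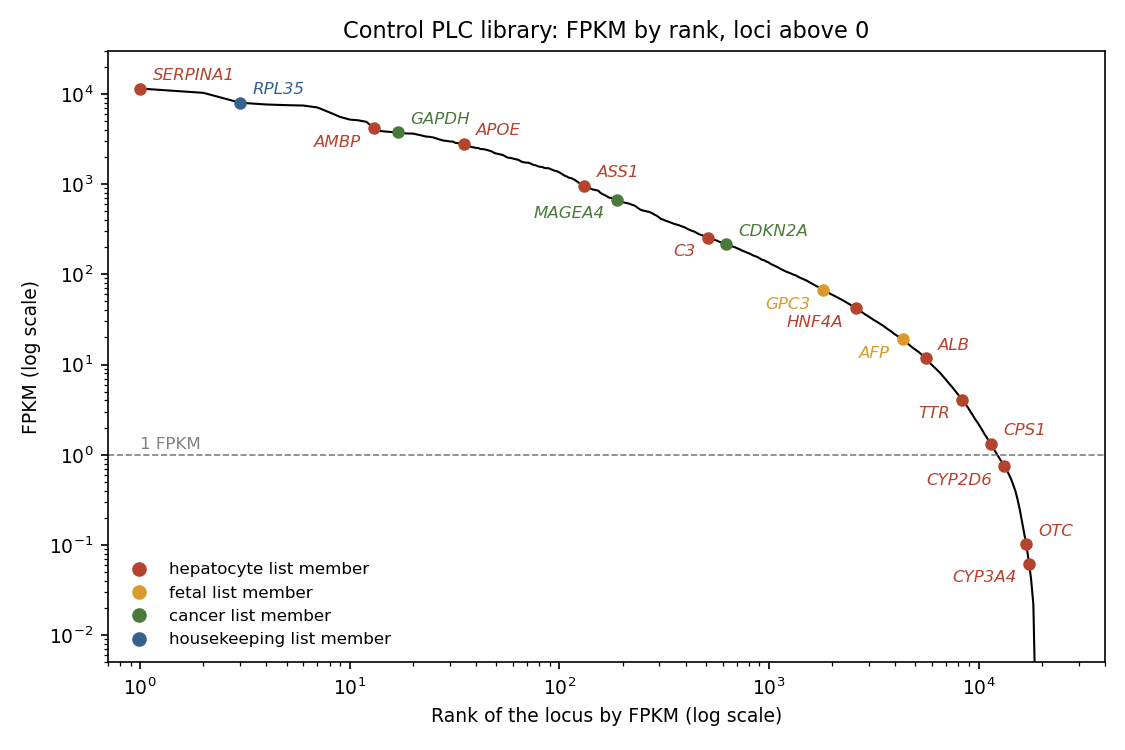
FPKM (log scale) against the rank of each locus (log scale) in the control library, for loci above 0, with chosen genes marked by the list they belong to and a dashed line at 1 FPKM. SERPINA1 is at rank 1 and AMBP at rank 13, while ALB at 11.8 FPKM sits below AFP at 19 FPKM and CYP3A4 lies at 0.0622 FPKM.

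The gene lists hold 955 genes, of which 948 were matched in the table. The hepatocyte lists had 151 of 277 members expressed, close to the 55.3% of all protein-coding names, and 88 members under 0.1 FPKM against 34.3% of all names. The fetal lists had 26 of 47 members expressed, the cancer lists 201 of 278, the housekeeping lists 257 of 283 and the lists for other cell types 10 of 76. Hepatocyte list members held 3.74% of the summed FPKM, and 3.27% came from secreted proteins. By role, 63 of 110 genes of secreted proteins, 21 of 27 transcription factors and 67 of 140 enzyme and transport genes were expressed.

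**Figure D2:**
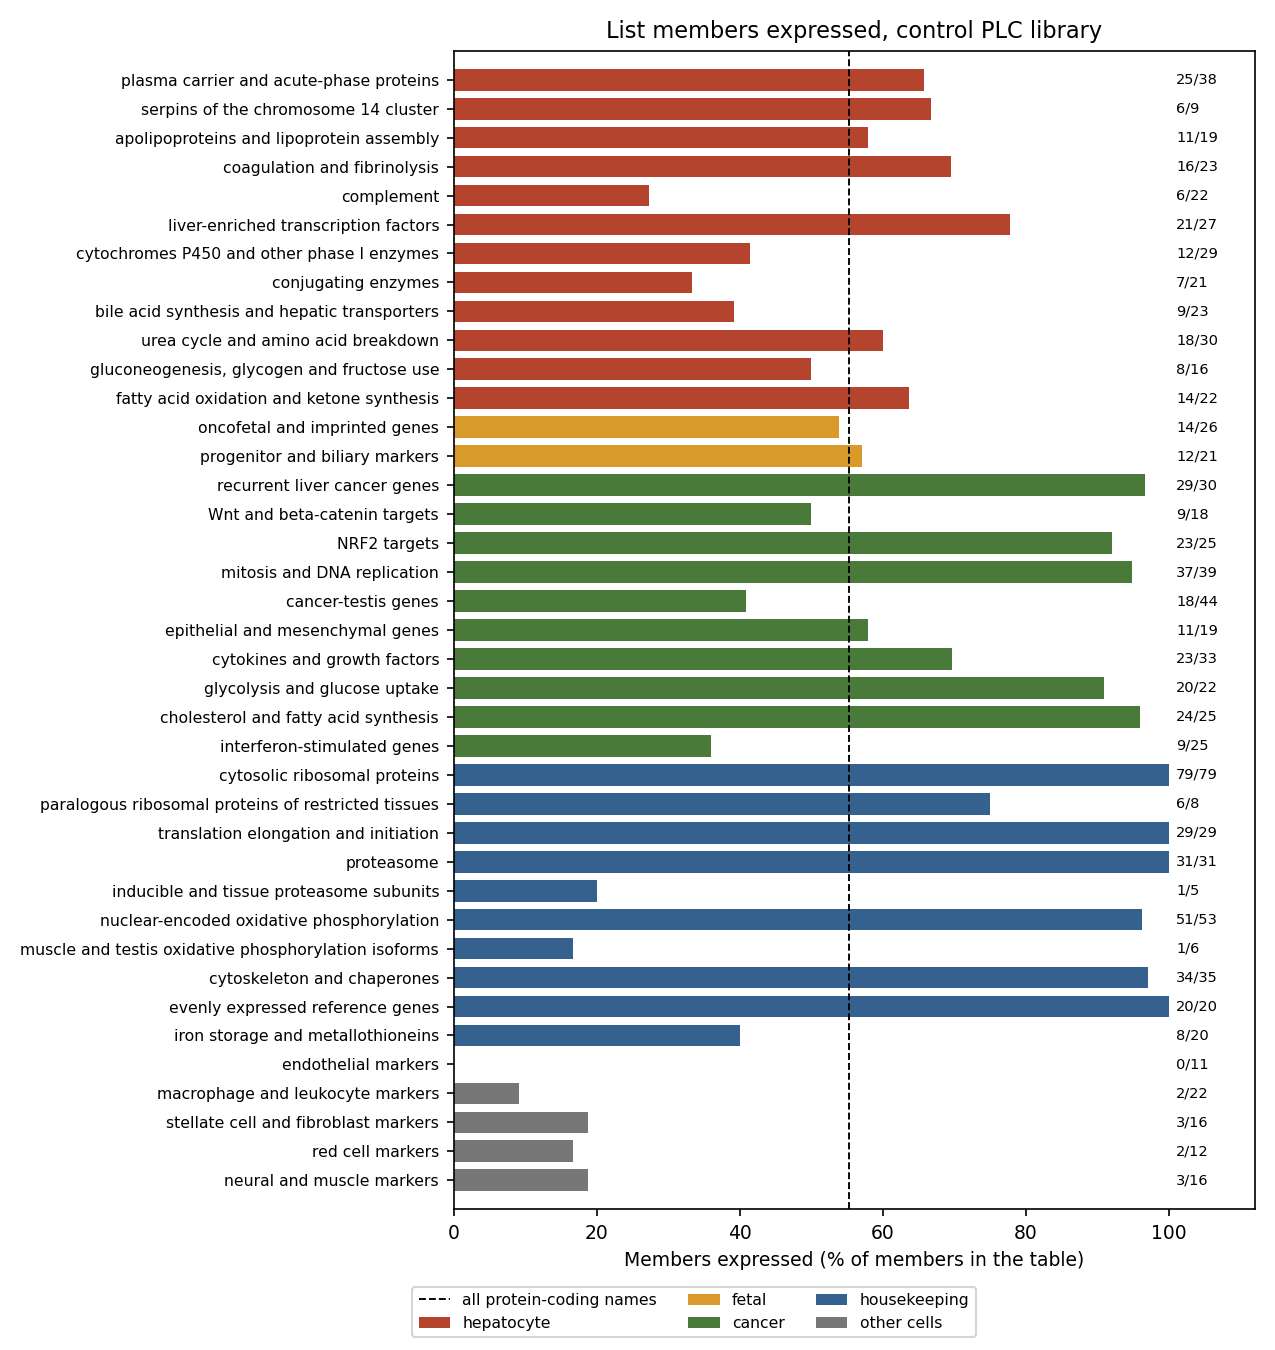
Share of the members of each of 39 gene lists that were expressed in the control library, in percent of members matched in the table, with the count beside each bar and colours for the 5 programs. The dashed line is the 55.3% of all protein-coding names; ribosomal protein, translation and proteasome lists reach 100%, while complement stands at 6 of 22 and endothelial markers at 0 of 11.

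Promoter sequences of the members the results turn on were taken from RefSeq (GRCh38.p14), whose coordinates are not those of the deposited table. They are printed 5′ to 3′ on the gene's strand, and position 1 is the annotated first base of the transcript, with position -1 just before it. The albumin genes and a chromosome 14 serpin are shown because neighbours in these clusters differed widely in level. In SERPINA6 capitals mark a FOXA motif, whose letters are TGTTTAC. In AFP and AFM they mark a TATA box in the exact letters TATAAA, and no letters of ALB are in capitals. ALB (chr4:73404187-73404286, plus strand), AFP (chr4:73436121-73436220, plus strand), AFM (chr4:73481645-73481744, plus strand) and SERPINA6 (chr14:94323337-94323516, minus strand) read as follows.
ALB: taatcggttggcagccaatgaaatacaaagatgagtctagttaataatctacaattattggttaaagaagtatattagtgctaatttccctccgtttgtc
AFP: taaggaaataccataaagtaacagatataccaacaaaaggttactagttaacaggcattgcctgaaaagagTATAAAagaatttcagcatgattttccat
AFM: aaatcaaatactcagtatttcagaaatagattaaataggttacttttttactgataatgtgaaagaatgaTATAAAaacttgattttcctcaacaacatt
SERPINA6: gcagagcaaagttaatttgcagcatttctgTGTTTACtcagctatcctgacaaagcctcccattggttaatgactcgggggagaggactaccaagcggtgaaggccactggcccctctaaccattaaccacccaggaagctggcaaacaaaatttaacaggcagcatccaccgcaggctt

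Among plasma carriers and acute-phase proteins, 25 of 38 members were expressed and 10 stood at 100 FPKM or more. After AMBP came TF, the iron carrier transferrin, at 1294 FPKM (1239 to 1348), RBP4, the plasma carrier of retinol, at 845 FPKM (814 to 876), and VTN, the adhesive protein vitronectin, at 798 FPKM (769 to 827). SAA2, an acute-phase apolipoprotein, and SAA4, its constitutive relative, shared a merged locus at 341 FPKM, while their neighbour SAA1 was at 0.740 FPKM (0 to 1.69) and SAA3P was listed at 0. SAA1 and SAA2 are near-identical, so that split is uncertain. ORM1 and ORM2, near-identical copies of orosomucoid, stood at 186 and 48.6 FPKM, a split that shared reads make uncertain.

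Albumin, the most abundant protein of adult plasma, was low. ALB stood at 11.8 FPKM (10.1 to 13.5) at rank 5590, and TTR, transthyretin, the carrier of thyroid hormone and of retinol-binding protein, at 4.09 FPKM (3.07 to 5.12). In the albumin cluster of chromosome 4 (chr4:74262831-74369691, hg19), the fetal AFP was above ALB with no overlap of their intervals, at 19 FPKM (16.9 to 21.2), and the vitamin E carrier AFM was at 0.0885 FPKM (0 to 0.329). As printed above, AFP and AFM hold the TATA letters at positions -29 and -30, and ALB does not hold them in these 100 bases. The TATA letters were thus present in the highest and the lowest gene of the cluster. Only the exact letters were searched, and ALB reads tatatta from position -30, so it is not said to lack a TATA box.

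HP, haptoglobin, stood at 1.36 FPKM in a locus merged with its copy HPR. The inter-alpha-trypsin inhibitor heavy chains, which bind bikunin and hyaluronan, ranged in their chromosome 3 cluster from 0.130 FPKM for ITIH3 through 2.82 FPKM for ITIH1 to 9.83 FPKM for ITIH4, the last in a merged locus. Members under 0.1 FPKM but above 0 were FETUB (a fetuin), CRP (the acute-phase C-reactive protein), AFM and IGF1 (the growth hormone-driven growth factor). Listed at 0 were SERPINA7 (thyroxine-binding globulin), LEAP2 (an antimicrobial and ghrelin-blocking peptide), HAMP (the iron hormone hepcidin), FGF21 (a fasting hormone) and IGFALS (the acid-labile subunit of the IGF complex, merged with SPSB3).

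The serpins of the chromosome 14 cluster differed by orders of magnitude. SERPINA1 held 97.9% of the FPKM of the cluster, which spans 341 kilobases. SERPINA6, which encodes the cortisol carrier transcortin, followed at 238 FPKM (227 to 249). Its promoter, printed above, holds the FOXA letters at position -150. Of the 9 promoters of the serpin list, only this 1 held them, and that of SERPINA1 did not.

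SERPINA10, the inhibitor of factor Xa that acts with protein Z, stood at 4.10 FPKM (3.45 to 4.75), and the merged locus of SERPINA3, SERPINA4 and SERPINA5 at 3.12 FPKM (2.27 to 3.98). SERPINA11 was at 0.289 FPKM, and SERPINA9 and SERPINA12 were listed at 0. Of the list, 6 of 9 were expressed, and 3 were expressed once merged loci were left out.

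Of the genes for apolipoproteins and lipoprotein assembly, 11 of 19 were expressed, with a median of 16.1 FPKM. In the chromosome 19 cluster APOE, a ligand of the LDL receptor family, stood at 2791 FPKM (2674 to 2908) and APOC1 at 1193 FPKM (1141 to 1245), while the merged APOC2 and APOC4 were at 0.834 FPKM (0 to 1.75). In the chromosome 11 cluster APOA1, the main protein of HDL, was at 311 FPKM (299 to 324) and APOC3, an inhibitor of lipoprotein lipase, at 109 FPKM (94.6 to 123), while APOA4 and APOA5 were at 0.258 and 0.12 FPKM. Each cluster thus held a pair of abundant genes and a pair below 1 FPKM.

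APOB, the structural protein of VLDL and LDL, stood at 16.1 FPKM (15.3 to 16.9). MTTP, which loads lipid onto it, was at 0.137 FPKM (0 to 0.533), below 1 FPKM over its whole interval. APOF was at 0.0550 FPKM, and LPA (apolipoprotein(a)) and PLTP (the phospholipid transfer protein) were listed at 0.

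Coagulation and fibrinolysis had 16 of 23 members expressed. The 3 fibrinogen chains are made in equal number for each fibrinogen molecule, and their genes lie side by side on chromosome 4 (chr4:155484108-155534119, hg19). Here FGA, the alpha chain, stood at 564 FPKM (539.9 to 588), FGG, the gamma chain, at 19.1 FPKM (17.3 to 20.8) and FGB, the beta chain, at 6.21 FPKM (5.08 to 7.34). FGA held 95.7% of the cluster's FPKM, and none of the intervals overlapped.

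SERPINF2, the plasmin inhibitor alpha-2-antiplasmin, was at 504 FPKM (487 to 521), and F2, prothrombin, at 51.8 FPKM (48.7 to 54.9). F13B, the carrier subunit of factor XIII, was at 0.0401 FPKM. F9 (coagulation factor IX), PLG (plasminogen), PROZ (protein Z) and HGFAC (an activator of hepatocyte growth factor) were listed at 0. The plasmin inhibitor was thus abundant while the precursor of plasmin was listed at 0.

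Complement had the lowest share of expressed members among the hepatocyte lists, 6 of 22, or 3 without merged loci, with a median of 0.0439 FPKM. C3, the central component, stood at 255 FPKM (247 to 264). C1S, a protease of the classical pathway, was at 138 FPKM in a locus merged with EMG1, and C4A was at 22.4 FPKM in one merged with STK19, while its near-identical copy C4B was at 0.231 FPKM. MASP2, a lectin-pathway protease, was at 0.0776 FPKM. Listed at 0 were MBL2 (mannose-binding lectin), C4BPA and C4BPB (the C4b-binding protein), C6, C8G and the merged C9, parts of the membrane attack complex, and the merged C2 and CFB, the proteases of the convertases. Other parts of that complex had a level above 0: C5 at 3.82 FPKM (3.19 to 4.45), C8A at 1.26 FPKM (0.943 to 1.57) and C8B at 0.531 FPKM.

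Of the liver-enriched transcription factors 21 of 27 were expressed, with a median of 14.9 FPKM; 0 of them reached 100 FPKM. CEBPB stood at 94.3 FPKM (91.3 to 97.4), CEBPA at 71.7 FPKM (68.0 to 75.4) and HNF4A at 42.3 FPKM (40.2 to 44.5). HHEX, FOXA2 and ONECUT1, which act in early liver formation, were at 34.3, 33.0 and 32.8 FPKM.

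The factors under 0.1 FPKM were mostly ligand-activated receptors. NR1I2 (PXR) and NR1I3 (CAR), which sense foreign compounds, NR1H4 (FXR), which senses bile acids, and NR1H3 (LXR alpha), which senses oxysterols, were listed at 0. GATA6, an endoderm factor, was at 0.0225 FPKM. PPARA, the receptor that drives fatty acid oxidation, was at 1.40 FPKM (0.494 to 2.31). The lineage-defining factors of hepatocytes were thus expressed while 4 of the metabolite-sensing receptors were listed at 0.

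**Figure D3:**
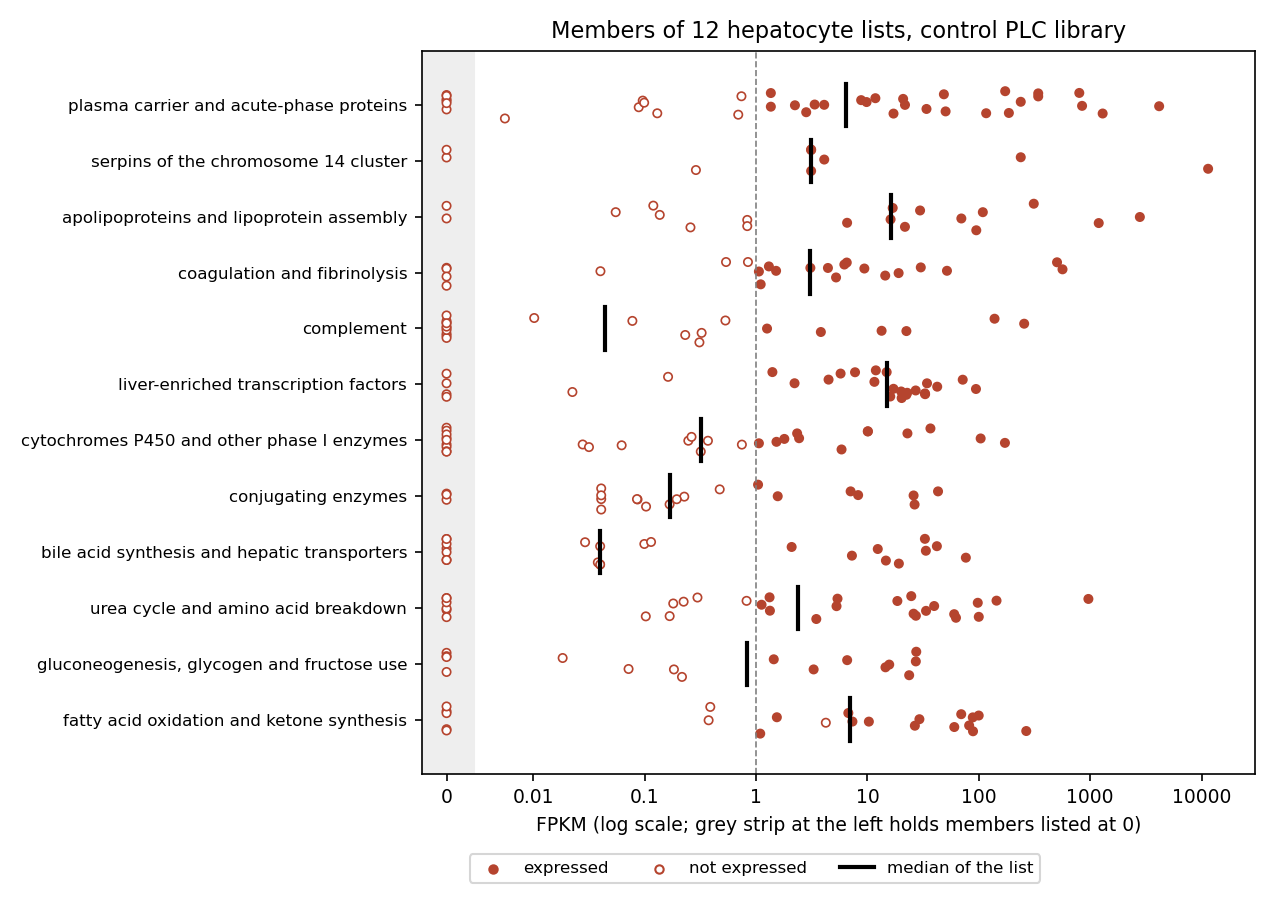
FPKM (log scale) of every matched member of the 12 hepatocyte lists, 1 point for each gene, filled where expressed; the grey strip holds members listed at 0, the dashed line is 1 FPKM and the black bar is the list's median. Transcription factors and apolipoproteins have medians of 14.9 and 16.1 FPKM, and complement and bile acid genes have medians of 0.0439 and 0.0399 FPKM.

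Cytochromes P450 and other phase I enzymes, which oxidise drugs and alcohols, had 12 of 29 members expressed, or 7 without merged loci. The highest was POR, the reductase that feeds electrons to all microsomal P450s, at 172 FPKM (164 to 179), followed by ALDH2, the mitochondrial aldehyde dehydrogenase, at 104 FPKM in a merged locus and ALDH1A1, a cytosolic one, at 36.8 FPKM. Among the P450s themselves CYP1A1, the form induced by aryl hydrocarbons, stood at 22.9 FPKM (21.5 to 24.2). The main drug-metabolising forms were low: CYP2D6 was at 0.747 FPKM (0.379 to 1.11), CYP3A4 at 0.0622 FPKM (0 to 0.314) and CYP2C8 at 0.0316 FPKM.

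Of 17 P450 names on the list 7 were expressed and 5 were listed at 0. The expressed names beside CYP1A1 were CYP2J2, which acts on arachidonic acid, at 2.44 FPKM, CYP2B6 at 2.34 FPKM, CYP4F3 at 1.53 FPKM, CYP4V2 in a merged locus at 1.06 FPKM and a merged pair of the CYP2C cluster. In the CYP3A cluster of chromosome 7 CYP3A5 was at 0.264 FPKM, the fetal CYP3A7 at 0.389 FPKM and CYP3A43 at 0.443 FPKM, so that 0 of 4 were expressed. The CYP2C cluster had 1 expressed locus, the merged CYP2C18 and CYP2C19 at 10.1 FPKM (9.11 to 11.1). CYP2E1, CYP1A2, CYP2A6, CYP4A11 and CYP4F2, P450s of adult liver, FMO5, a flavin monooxygenase, and MAOB, a monoamine oxidase, were listed at 0; CYP2A6 and FMO5 lie within expressed loci.

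In the alcohol dehydrogenase cluster of chromosome 4 ADH5, the glutathione-dependent formaldehyde dehydrogenase found in all tissues, held 97.0% of the FPKM at 80.6 FPKM (76.9 to 84.3). ADH6 was at 1.80 FPKM, ADH1C at 0.370 FPKM, ADH4 at 0.319 FPKM and ADH1B at 0.0278 FPKM, and ADH1A and ADH7 were listed at 0. The ethanol-oxidising liver forms were thus all below 1 FPKM except ADH6.

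Conjugating enzymes had 7 of 21 members expressed. The highest were GSTM1, a glutathione transferase whose locus is merged with GSTM2, at 43 FPKM, NNMT, which methylates nicotinamide, at 26.5 FPKM and GSTZ1, a glutathione-dependent isomerase of tyrosine breakdown, at 26 FPKM. In the UGT2B cluster, whose enzymes glucuronidate steroids and drugs, UGT2B4 stood at 1.04 FPKM (0.608 to 1.48), UGT2B11 at 0.472 FPKM, UGT2B15 at 0.194 FPKM and UGT2B10 at 0.168 FPKM, with UGT2B17 and UGT2B7 at 0.0864 and 0.0854 FPKM and UGT2B28 listed at 0. The merged UGT1A locus, which glucuronidates bilirubin among other substrates and of which UGT1A1, UGT1A4, UGT1A6 and UGT1A9 were on the list, was at 0.0408 FPKM (0 to 0.371). GSTA1 and GSTA2, the main glutathione transferases of adult hepatocytes, and NAT2, a drug acetyltransferase, were listed at 0.

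The AKR1C cluster of chromosome 10, whose enzymes reduce steroids and aldehydes, was abundant in comparison. AKR1C1 stood at 265 FPKM (254 to 276), AKR1C3 at 91.8 FPKM (87.2 to 96.4) and AKR1C2 at 38.0 FPKM (35.3 to 40.6), while AKR1C4, the form largely confined to liver, was at 0.540 FPKM (0.204 to 0.877). AKR1C1 and AKR1C2 are near-identical, so their split is uncertain.

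Bile acid synthesis and hepatic transport had 9 of 23 members expressed, or 5 without merged loci. The highest were HSD3B7, an enzyme of sterol ring modification, at 76.5 FPKM in a merged locus, SLC27A5, a bile acid and fatty acid CoA ligase, at 42.0 FPKM, and SLC51B, the beta subunit of the basolateral bile acid exporter, at 33.5 FPKM. SLC51A, the alpha subunit that the exporter also needs, was listed at 0, in a locus that lies within an expressed one. ABCC2, which exports conjugates into bile, stood at 12.4 FPKM (11.5 to 13.3).

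CYP7A1, the rate-limiting enzyme of bile acid synthesis, was listed at 0, and CYP8B1, the 12-alpha-hydroxylase, was at 0.0380 FPKM. SLC10A1 (NTCP), which takes up bile acids from blood, ABCB11, which exports bile salts, ABCB4, which exports phospholipid, ABCG8, which exports sterols, and SLC22A7, an organic anion transporter in an expressed locus, were listed at 0. ABCG5, the partner of ABCG8, was at 0.0994 FPKM, AKR1D1, a steroid reductase, at 0.0398 FPKM and the merged SLCO1B1 and SLCO1B3, organic anion uptake transporters, at 0.0399 FPKM. The main transporters for uptake and for canalicular export of bile salts, SLC10A1 and ABCB11, were thus both listed at 0.

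The urea cycle and amino acid breakdown had 18 of 30 members expressed. ASS1, argininosuccinate synthase, was at 963 FPKM (922 to 1004) and ASL, argininosuccinate lyase, at 97.9 FPKM in a locus merged with CRCP. CPS1, the first enzyme of the cycle, was at 1.32 FPKM (0.733 to 1.91), OTC, the second, at 0.102 FPKM (0 to 0.404), and ARG1, the last, at 0.181 FPKM (0 to 0.788). The 2 enzymes that act in the middle of the cycle, ASL in a merged locus, were thus well above the enzymes before and after them.

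CBS, cystathionine beta-synthase, stood at 144 FPKM. In tyrosine breakdown HGD, homogentisate dioxygenase, was at 60.1 FPKM and FAH, fumarylacetoacetase, at 33.6 FPKM, while TAT, tyrosine aminotransferase, was at 0.168 FPKM. Listed at 0 were TDO2 (tryptophan dioxygenase), UROC1 (urocanate hydratase of histidine breakdown), GLS2 (liver glutaminase), GNMT and BHMT (methyl transfer from S-adenosylmethionine and from betaine) and DPYS (a pyrimidine-degrading enzyme). The later steps of tyrosine breakdown were thus expressed, while TAT, which starts the route, was low.

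Gluconeogenesis, glycogen and fructose use had 8 of 16 members expressed. PCK2, the mitochondrial PEP carboxykinase, was at 27.4 FPKM (25.5 to 29.4), G6PC, glucose-6-phosphatase, at 27.2 FPKM (25.5 to 28.9) and PC, pyruvate carboxylase, at 23.7 FPKM with a wide interval (3.32 to 44.1). FBP1, fructose-1,6-bisphosphatase, which the pathway needs between these steps, was listed at 0. SLC37A4, the glucose-6-phosphate transporter, was listed at 0 too, but stood at 81.0 FPKM in another library, so its 0 cannot be read as a low level. PKLR (liver pyruvate kinase) was listed at 0, and GYS2 (liver glycogen synthase) was at 0.0184 FPKM.

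Fatty acid oxidation and ketone synthesis had 14 of 22 members expressed, with a median of 7.04 FPKM. ACADVL, the very-long-chain acyl-CoA dehydrogenase, stood at 267 FPKM (257 to 276), HADHA, the trifunctional protein's alpha subunit, at 99.8 FPKM (95 to 105) and ACAA1, the peroxisomal thiolase, at 88.7 FPKM (83.9 to 93.6). FABP1, the liver fatty acid binding protein, was at 0.389 FPKM (0 to 0.950). ACADL (the long-chain acyl-CoA dehydrogenase), ACSM2A, ACSM2B and ACSM3 (medium-chain acyl-CoA ligases, the first pair near-identical) and PPARGC1A (a coactivator of mitochondrial genes) were listed at 0.

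In all, 88 hepatocyte members were under 0.1 FPKM. Of these, 70 had no second protein-coding gene in their locus, did not lie within an expressed locus, and were under 1 FPKM in the other libraries as well. These checks do not tell a low level from a failed estimate at 0: NDUFS1 and TUBA1A, a tubulin, were listed at 0 and met all of them.

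Many proteins come in related forms. In each pair compared here a form was taken as that of adult liver, and the other is often one of fetal, growing or other cells. The other form can be one that adult liver makes too, as for PCK2 and ACACA. Most pairs are enzymes, with a transporter, a plasma protein and a keratin pair beside them. Of 13 such pairs, the form taken as adult was lower in 9 with no overlap of the intervals, higher in 2, and overlapped the other form in 2. In 2 of the 9, PKLR and GSTA1, the adult form was listed at 0, which can be a failed estimate, and in 7 it had a level above 0. In sugar metabolism PKM, the pyruvate kinase of growing cells, was at 933 FPKM (899 to 967) with PKLR listed at 0.

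SLC2A1, the general glucose transporter, was at 12 FPKM against 0.183 FPKM for SLC2A2, the liver form. Among glycogen enzymes PYGB, the brain phosphorylase, was at 59.2 FPKM against 6.58 FPKM for the liver form PYGL, and GYS1, the general synthase, was at 13.6 FPKM against 0.0184 FPKM for GYS2. PCK2 exceeded PCK1, the cytosolic PEP carboxykinase at 1.44 FPKM (0.776 to 2.11). In all of these sugar pairs the form taken as adult was lower.

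In other routes MAT2A, the methionine adenosyltransferase of growing cells, was at 56.2 FPKM against 1.33 FPKM for the liver form MAT1A. ACACA, the cytosolic acetyl-CoA carboxylase of fatty acid synthesis, was at 15.7 FPKM against 1.92 FPKM for ACACB, the form that restrains fatty acid oxidation. GSTP1 at 3539.7 FPKM stood against GSTA1 at 0. AFP over ALB was the smallest of the 9 differences, at 1.61 times.

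The pairs that went the other way were BCAT2, the mitochondrial branched-chain aminotransferase of adult tissues, of which hepatocytes make little, at 32.6 FPKM (30.3 to 35.0) against 2.68 FPKM for the oncofetal BCAT1, and KRT18, the hepatocyte keratin, at 1992 FPKM (1908 to 2075) against 0.568 FPKM (0.0278 to 1.11) for the bile duct keratin KRT19. ARG1 with ARG2, both arginases, and CYP3A4 with CYP3A7 were under 1 FPKM in both forms, with overlapping intervals.

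**Figure D4:**
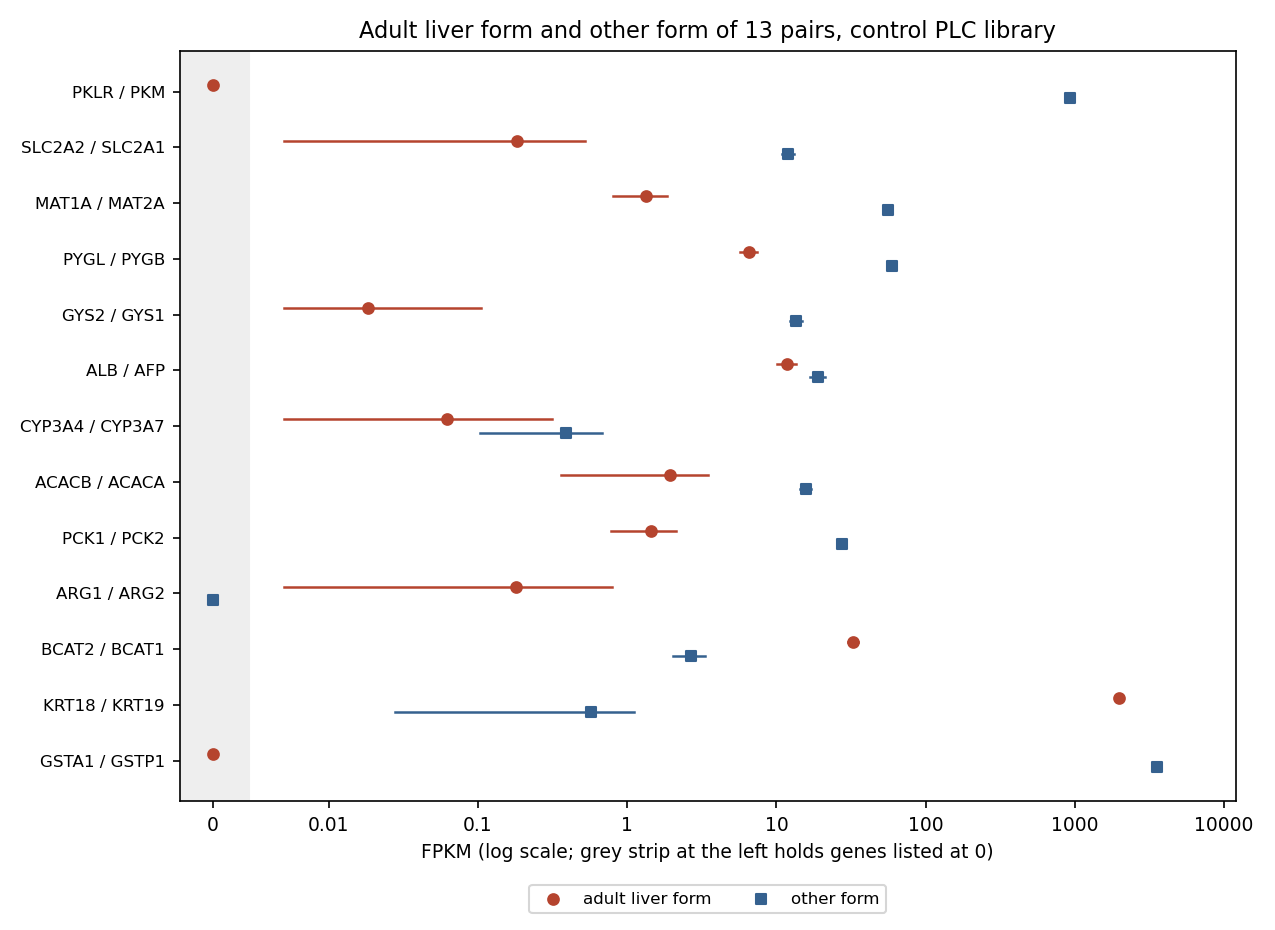
FPKM (log scale) of the adult liver form (circle) and the other form (square) of 13 pairs in the control library, with bars for the deposited interval; genes listed at 0 are in the grey strip and bars that reach 0 are drawn to the strip's edge. The form taken as adult lies to the left with no overlap in 9 pairs. It lies to the right for KRT18 and for BCAT2, of which hepatocytes make little.

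Of the oncofetal and imprinted genes, 14 of 26 were expressed. MDK, the growth factor midkine, was at 638 FPKM (609 to 668), HMGA1, a chromatin protein of growing cells, at 633 FPKM (611 to 655) and GPC3, a surface proteoglycan used as a marker of hepatocellular carcinoma, at 67.2 FPKM (63.1 to 71.2). At the imprinted locus of chromosome 11, the untranslated RNA H19 was at 7.83 FPKM (6.54 to 9.12) and its neighbour IGF2, a fetal growth factor in a locus merged with INS, at 0.406 FPKM (0 to 1.2). The RNA-binding proteins IGF2BP2 and IGF2BP1 stood at 27.7 and 23 FPKM and LIN28B, a blocker of let-7 microRNA maturation, at 4.72 FPKM.

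LIN28A, its relative, was at 0.0973 FPKM, FGF19, an intestinal bile acid signal that some liver tumours make, at 0.0899 FPKM and ZBTB16, a zinc finger regulator, at 0.0853 FPKM. Listed at 0 were DLK1 (a hepatoblast surface protein), MEG3 (an imprinted RNA beside it), AKR1B10 (an aldo-keto reductase of many liver tumours), SPINK1 (a trypsin inhibitor, which stood at 1.33 FPKM in another library) and the fetal globins HBG1 and HBG2, the last in a merged locus.

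Progenitor and biliary markers had 12 of 21 members expressed. MUC1, an epithelial mucin, was at 247 FPKM in a locus merged with KRTCAP2, ANPEP (CD13) at 88.7 FPKM and EPCAM at 69.0 FPKM (65.1 to 73.0). The duct markers were lower, with KRT7 at 7.04 FPKM, SOX9 at 4.08 FPKM and KRT19 below 1 FPKM. KIT and NCAM1, surface markers of stem or neural cells, and CLDN6, an embryonic tight junction protein, were listed at 0.

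Of the genes recurrently altered in liver cancer, 29 of 30 were expressed, and ACVR2A, an activin receptor, was listed at 0. Expression says nothing here about mutation. EEF1A1 led the list, CDKN2A, which encodes the cell cycle inhibitors p16 and ARF, followed at 215 FPKM (205 to 224) and KEAP1, which marks NRF2 for degradation, was at 75.7 FPKM (72.2 to 79.2). CTNNB1, beta-catenin, was at 62.2 FPKM (59.7 to 64.6) and TERT, the telomerase enzyme, at 3.10 FPKM (1.89 to 4.30).

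NRF2 switches on genes of iron storage, thiol reduction and NADPH supply, and 23 of 25 of its listed targets were expressed, with a median of 48.9 FPKM. FTL and FTH1, the ferritin chains, were at 3628 and 1429.8 FPKM and PRDX1, a peroxiredoxin, at 726 FPKM (693 to 758). The exceptions were SLC7A11, the cystine importer, at 0.314 FPKM (0.152 to 0.476) and AKR1B10 at 0.

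Wnt and beta-catenin targets had 9 of 18 members expressed. RNF43, a ligase that removes Wnt receptors, was at 191 FPKM in a merged locus, OAT, ornithine aminotransferase, at 71.0 FPKM and GLUL, glutamine synthetase of hepatocytes around the central vein, at 62.4 FPKM (59.8 to 65.0). CYP2E1 and CYP1A2, also perivenous targets of the list, were listed at 0.

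Mitosis and DNA replication genes were expressed in 37 of 39 cases, with a median of 48.3 FPKM, and 12 stood at 100 FPKM or more. UBE2C, a ubiquitin conjugase of the anaphase-promoting complex, was at 355 FPKM (337 to 373), AURKB, a mitotic kinase, at 299 FPKM (288 to 311) and TYMS, thymidylate synthase, at 257 FPKM (245 to 269). CENPE, a kinetochore motor, was at 0.365 FPKM (0 to 0.850), and CCNE2, a cyclin of the start of replication, was listed at 0 but stood at 5.39 FPKM in another library.

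Cancer-testis genes are active in germ cells and in some tumours; 18 of 44 were expressed, with a wide spread. MAGEA4 was at 672 FPKM (657 to 687), CTAG2 at 528 FPKM (509 to 548) and MAGEA3 at 169 FPKM (161 to 177), the last with near-identical copies that make its share uncertain. The median of the list was 0.221 FPKM, and 11 members were listed at 0.

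Glycolysis had 20 of 22 members expressed, with a median of 100.7 FPKM, led by GAPDH, the enolase ENO1 at 1869 FPKM and the isomerase TPI1 at 1499 FPKM. The exceptions were ALDOC, the brain aldolase, at 0.319 FPKM and HK2, a hexokinase of muscle and many tumours, at 0.0695 FPKM (0 to 0.307). Cholesterol and fatty acid synthesis had 24 of 25 expressed, led by the desaturase SCD at 235 FPKM (226 to 243) and the farnesyl diphosphate synthase FDPS at 209 FPKM, with THRSP, a regulator of lipid synthesis, listed at 0.

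The epithelial and mesenchymal list had 11 of 19 members expressed. The simple epithelial keratins KRT8 and KRT18 were at 2579.5 and 1992 FPKM in overlapping loci, and TGFBI, a matrix protein, was at 483 FPKM. VIM, the mesenchymal filament vimentin, was at 113 FPKM (107 to 118), well above CDH1, E-cadherin, at 4.75 FPKM (2.76 to 6.75). CLDN1, a tight junction protein, was listed at 162 FPKM with an interval from 0 to 54639, so it was not called expressed.

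Among cytokines and growth factors 23 of 33 were expressed. MIF, an inflammatory cytokine in a locus merged with SLC2A11, was at 1274 FPKM, IL32 at 702 FPKM (681 to 723) and GDF15, a stress hormone, at 605 FPKM (578 to 632). Interferon-stimulated genes had 9 of 25 expressed; IFITM3, which blocks virus entry, was at 354 FPKM, ISG15, a ubiquitin-like modifier, at 181 FPKM and the merged IFI27 at 61.7 FPKM. The median of that list was 0.356 FPKM, and 11 members were under 0.1 FPKM.

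Housekeeping lists were nearly complete. Ribosomal protein genes were expressed in 79 of 79 cases, 72 of them at 1000 FPKM or more, with a median of 1897 FPKM and 24.9% of the summed FPKM. The lowest was RPL22 at 449 FPKM (430.2 to 468). Many of these loci hold snoRNA genes or pseudogene names, and without merged loci 45 remained. Their listed paralogs, not all of which are confined to restricted tissues, were lower. RPL36AL was at 285 FPKM, RPS27L at 139 FPKM and RPL26L1 at 111 FPKM. The tissue-restricted RPL3L of muscle and RPL10L of testis were at 0.282 and 0.210 FPKM.

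Translation factors (29 of 29) and proteasome subunits (31 of 31) were expressed throughout. EIF5A, an elongation factor, was at 2204 FPKM, GNB2L1, the ribosomal scaffold RACK1, at 1919.6 FPKM, and the proteasome subunits PSMA7, PSMB6 and PSMB7 were at 755, 705 and 617 FPKM. Of the inducible or tissue-restricted proteasome subunits, PSMB10 was at 57.8 FPKM in a merged locus, PSMB11 of the thymus at 0.0480 FPKM, and PSMB8, PSMB9 and PSMA8 were listed at 0, PSMB9 within an expressed locus; without merged loci, 0 of 5 were expressed. PSMB8, PSMB9 and PSMB10 are the interferon-induced subunits.

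Nuclear-encoded oxidative phosphorylation genes were expressed in 51 of 53 cases, led by the cytochrome oxidase subunits COX8A and COX6A1 in merged loci at 1690 and 955 FPKM and COX4I1 at 923 FPKM. Of the muscle and testis forms, COX6A2 was at 7.72 FPKM (5.18 to 10.3), COX6B2 at 0.163 FPKM, and COX4I2, COX7A1, COX8C and NDUFA4L2 were listed at 0. Cytoskeleton and chaperone genes were expressed in 34 of 35 cases; PPIA and PFN1 led, and TUBA1A, an alpha-tubulin with near-identical copies, was listed at 0 beside TUBA1B at 1604 FPKM. The reference genes used for normalisation were expressed in 20 of 20 cases, from TBP at 9.85 FPKM to PGK1 at 580.5 FPKM, with B2M at 568 FPKM and PSMB4 at 539 FPKM.

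Iron storage and metallothionein genes had 8 of 20 expressed. In the metallothionein cluster of chromosome 16, whose proteins bind zinc and copper, MT2A was at 432 FPKM (411 to 453), MT1X at 103 FPKM (93.3 to 113) and MT1F at 2.03 FPKM. MT1A and MT3 were at 0.507 and 0.12 FPKM, and MT1E, MT1M, MT1G, MT1H, MT1B and MT4 were listed at 0. These genes are near-identical, and MT1B stood at 34.8 FPKM in another library, so the split within the cluster is uncertain.

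Markers of the other cells of liver tissue were largely at 0. Endothelial markers had 0 of 11 expressed, the highest being LYVE1 at 0.174 FPKM, and PTPRC (CD45), CSF1R and C1QA of leukocytes and macrophages, COL1A2 of stellate cells and HBB of red cells were listed at 0. Of the macrophage and leukocyte list 2 of 22 were expressed: CD68, whose locus is merged with the abundant EIF4A1, and LYZ, lysozyme, at 181 FPKM (172 to 190.2); 1 remained without merged loci. NKG7 and CD79A were next at 0.312 and 0.312 FPKM.

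Stellate and fibroblast markers had 3 of 16 expressed, TAGLN and PDGFRA in merged loci at 12.9 and 12.6 FPKM and COL5A1 at 2.41 FPKM, which was left alone without merged loci. The alpha-globins HBA1 and HBA2, near-identical copies, were at 8.94 and 8.25 FPKM, and the other 10 red cell markers were not expressed. Of neural and muscle markers 3 of 16 were expressed, the synaptic proteins SYP at 13.6 FPKM (12.4 to 14.8) and SNAP25 at 11.2 FPKM (10.0 to 12.4) and the myelin gene MBP at 3.35 FPKM. The 13 genes taken as defining hepatocyte markers were all expressed, from TTR at 4.09 FPKM, FGB at 6.21 FPKM and ALB at 11.8 FPKM to SERPINA1 at 11439 FPKM, though many other hepatocyte members described above were not. Of 5 defining bile duct markers 3 were expressed.

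Sequence at the promoters differed with level. RefSeq gave a promoter of 250 bases before and 50 after the start for 15265 of 18414 protein-coding names outside chromosome 8 (82.9%). The ratio of observed to expected CpG had a median of 0.38 for genes listed at 0, 0.82 for genes at 1 to 10 FPKM and 0.87 for genes at 1000 FPKM or more. The TATA letters, searched between positions -40 and -20, were found in 7.66% of promoters of genes listed at 0 and in 2.11% of those of expressed genes, against 4.11% of all. From 1 FPKM up, whatever the lower bound, the share did not fall steadily with level. It was 1.95% at 1 to 10 FPKM, 1.84% at 10 to 100 FPKM and 3.17% at 100 to 1000 FPKM. At 1000 FPKM or more it was 4.69%, or 6 of 128 promoters. These are descriptions of letters, not of factor binding. Classes with under 80% of promoters matched are not given, which leaves out genes above 0 and under 1 FPKM (78.1%).

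The FOXA letters, searched on both strands over the 250 bases, were held by 2.22% of all promoters.

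The most abundant class had another feature. Ribosomal protein and elongation factor messages begin with a C followed by further pyrimidines, the motif through which their translation is tied to nutrient supply. The 45 bases around the start, from position -30 to 15, are shown for RPL35 (chr9:124861943-124861987, minus strand), RPL41 (chr12:56116603-56116647, plus strand), RPS27 (chr1:153990732-153990776, plus strand) and RPS21 (chr20:62387073-62387117, plus strand). These are the highest ribosomal genes with a run of at least 5 bases. RPS29, higher still at 10248 FPKM, had no such run at its annotated start and is not shown. Only a run that begins at the annotated first base was counted. A gene without it is therefore not said to lack the motif. Also shown are RPL22 (chr1:6199581-6199625, minus strand), the lowest ribosomal gene, EEF1A1 (chr6:73521018-73521062, minus strand) and, as an abundant gene without the run, GAPDH (chr12:6535234-6535278, plus strand). Capitals mark the run of C and T that begins with a C at position 1.
RPL35: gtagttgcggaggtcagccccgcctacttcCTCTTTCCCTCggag
RPL41: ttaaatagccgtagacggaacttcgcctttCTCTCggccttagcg
RPS27: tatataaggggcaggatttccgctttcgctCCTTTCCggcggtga
RPS21: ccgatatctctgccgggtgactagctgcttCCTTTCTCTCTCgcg
RPL22: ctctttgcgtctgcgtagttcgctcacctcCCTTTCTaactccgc
EEF1A1: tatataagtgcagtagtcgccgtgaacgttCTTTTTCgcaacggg
GAPDH: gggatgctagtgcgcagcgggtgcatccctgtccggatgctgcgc

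A run of at least 5 such bases, the minimum used here, was found in 43 of 63 ribosomal protein promoters (68.3%), 9 of 23 translation factor promoters (39.1%) and 0 of 26 proteasome promoters, against 4.66% of all. Across level classes it was found in 3.61% of genes listed at 0, 4.19% at 1 to 10 FPKM, 5.13% at 10 to 100 FPKM, 8.44% at 100 to 1000 FPKM and 35.2% at 1000 FPKM or more. Ribosomal genes made up 39 of the 45 genes with the run in the highest class; of its 71 other genes 6 held it (8.45%), close to the share of the class below. RPL22, at 449 FPKM the lowest ribosomal gene, held a run of 7 bases, as did RPS27 at 7486 FPKM. The 43 ribosomal genes with the run ranged from 449 to 7963 FPKM with a median of 2086 FPKM. The 20 without it at the annotated start ranged from 466 to 10248 FPKM with a median of 1786 FPKM. The ranges thus overlapped over most of their length.

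**Figure D5:**
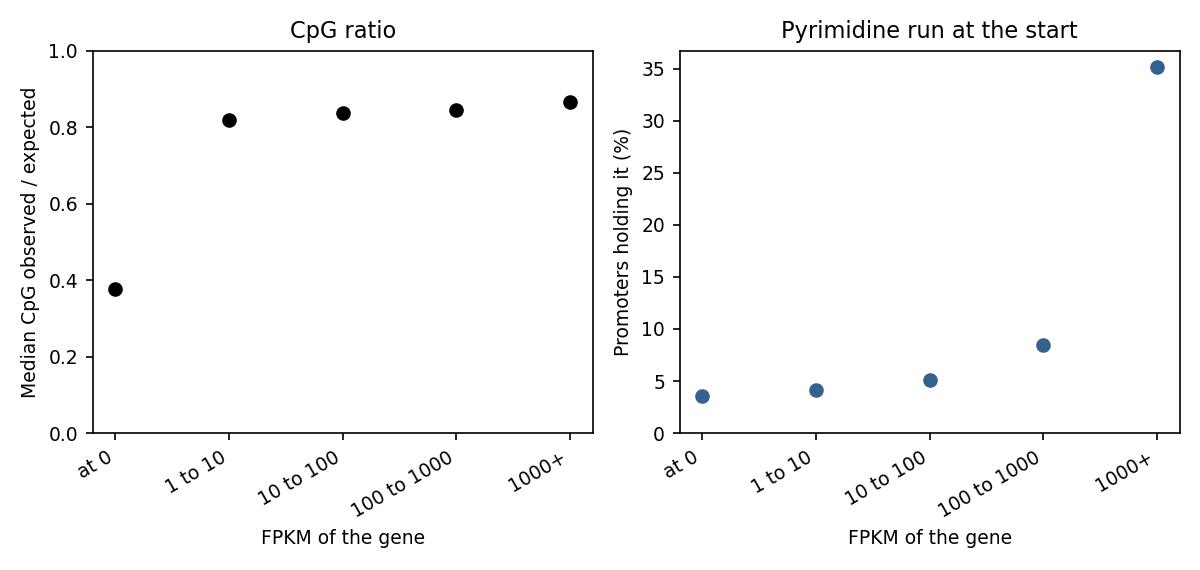
Promoter features of protein-coding genes outside chromosome 8 by FPKM class in the control library: the median ratio of observed to expected CpG, and the share of transcripts that start with a C in a run of at least 5 pyrimidines. Points are classes, and genes above 0 and under 1 FPKM are not drawn. The CpG ratio is 0.38 for genes at 0 and 0.82 at 1 to 10 FPKM, and the start run is found in 35.2% of genes at 1000 FPKM or more, most of them ribosomal.

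By chromosome, the share of protein-coding names expressed ran from 45.3% on chromosome 4 and 45.8% on chromosome 11 to 64.7% on chromosome 22 and 65.8% on chromosome 16. The share over all protein-coding names was 55.3%. Chromosome 4 holds the albumin, fibrinogen, UGT2B and alcohol dehydrogenase clusters, which are a small part of its 729 names.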

How the data were processed

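Total RNA of control PLC cells was made into a library with the NEBNext Ultra RNA kit and sequenced on an Illumina NovaSeq, per the labels' protocols. Per the submitters' processing notes, the tools were TopHat2 2.0.12 and Cufflinks 2.2.1 and the build was hg19; their options and annotation were not given in the sources used here. The values the authors deposited are FPKM for each gene, an interval around it and, per the file headers, a status. These give no level for the interval, and 95%, the default of Cufflinks, was assumed.

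Entries with status OK and a locus of 300 bases or more were ranked (10723 shorter entries and 1 with a failed status were left out). A name with several loci took its highest. Deposited starts count from 0 and were raised by 1. Gene types came from RefSeq symbols. There was no replicate, so no test was run; the level of a single library is given with its deposited interval. Fragments were worked out from FPKM and upper bound in single-exon genes of 2000 bases or more to estimate depth. Motifs were searched in RefSeq promoters. Scripts used Python 3.11.15, pandas 2.3.3, numpy 2.4.6 and matplotlib 3.10.9, and were tested on simulated data.

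Members and lists were chosen with earlier results of these data known. Named genes are the 25 highest, the 3 highest of each list, hepatocyte and fetal members under 0.1 FPKM, members of isozyme pairs and clusters, and, in other lists, members not expressed where these are 5 or fewer; others named were chosen after their values were seen. Some genes, and pairs and motifs that involve them, are not reported here. The other libraries were used only to tell whether a value of 0 could be a failed estimate and to check members under 0.1 FPKM.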

Additional observations from a re-analysis of the deposited data

Results flagged for a closer look

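The entries left out of the ranking hold signal. Of 10723 loci under 300 bases, 99 were at 1 FPKM or more. The highest, RNA5-8S5, a 5.8S ribosomal RNA gene of 153 bases, was listed at 1033130 FPKM (934564 to 1131700), more than the 799617 FPKM summed over all ranked loci. The 1 entry with a failed status, DHX37, an RNA helicase of ribosome assembly, was listed at 35.2 FPKM, outside its own interval of 0 to 4.86 FPKM.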

How the results depend on the processing

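No paired analysis was possible because each group has 1 library. The counts of expressed loci and of expressed members in the 5 programs stayed within 1.5 times under thresholds of 0.5 and 2 FPKM, a lower bound of 1 FPKM, all statuses, no minimum length, summed loci, and merged loci left out (for all loci 10147 to 13943; for hepatocyte members 117 to 157). Leaving out members whose locus holds another protein-coding gene, an alternative chosen after seeing the data, left 124 hepatocyte members expressed, and 9 pairs with the adult form lower. A fold of 2 in place of separate intervals also gave 9 pairs, 8 of them the same: AFP over ALB was lost and CYP3A7 over CYP3A4, whose intervals overlap, was gained.

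The shares moved more. The 10 highest loci held 11.8% of the summed FPKM without merged loci, 60.7% without a minimum length, 9.73% by lower bounds and 10.6% without small RNA genes and loci under 1000 bases. For secreted hepatocyte proteins the same settings except lower bounds gave 3.85%, 1.37% and 3.68%; these settings change which loci enter the sum. The TATA share was 2.10% at 2 FPKM. Depth limits calls under about 0.0653 FPKM for a transcript of 2000 bases, and values listed at 0 may be failed estimates.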

Other observations

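Several abundant genes belong to no list; they were chosen after their values were seen. Hepatocyte-secreted proteins among them were AGT, the precursor of angiotensin, at 1035 FPKM (992 to 1079), and A2M, the broad protease inhibitor alpha-2-macroglobulin, at 989.9 FPKM (959.9 to 1019.9). ID1 and ID3, which block basic helix-loop-helix factors and are targets of BMP signalling, were close to each other at 1024 FPKM (979.6 to 1069) and 973 FPKM (931 to 1015). TPM2, a tropomyosin, was at 1066 FPKM, HSPB1, a small heat shock protein, at 1016 FPKM, TM4SF5, a tetraspanin-like protein of liver and gut tumours, at 689.8 FPKM, and CKB, the brain-type creatine kinase, at 621 FPKM (599.9 to 643).

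Of 2518 ranked loci with no gene name, 1226 were expressed. Some listed genes had intervals too wide to place them: BDH1, a ketone body dehydrogenase, stood at 4.23 FPKM with an interval from 0 to 125.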
